A study of Arabidopsis thaliana with 46 samples.

Results

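The effect of TGA4 on root cell transcripts with translation blocked was measured by comparing 3 TGA4_pChx libraries with 3 EV_pChx libraries, of 46 libraries in the series. The comparison was chosen by the labels alone and took in all 18673 genes that passed the filter on low counts, of 33341 gene IDs listed. TGA4 itself (AT5G10030) was left out of every count because the vector carries it. The study was designed to find genes that a transcription factor regulates without a newly made protein in between.

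All 6 libraries came from protoplasts of Arabidopsis thaliana Col-0 roots, made from seedlings aged 10 days. The cells were transfected with a vector for TGA4 fused to the glucocorticoid receptor (TGA4_pChx) or with the empty vector (EV_pChx), sorted by fluorescence, and given 35 µM cycloheximide and 10 µM dexamethasone. TGA4_mChx and EV_mChx, with 3 libraries each, were the same transfections without cycloheximide. TGA4_60N and EV_60N, again 3 libraries each, were separate transfections at 20 mM KNO3 and 20 mM NH4NO3, with the same cycloheximide and dexamethasone concentrations. The labels do not give the nitrogen dose of the cycloheximide experiment. Its methods refer to the nitrogen treatment of the main assay, which is the 60N dose, so the 60N libraries are read here as a separate experiment and not as another nitrogen condition. According to the methods, each vector was 1 transfection divided into wells before treatment, so the vector and the transfection cannot be told apart, and p-values cover the spread between wells only.

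In this assay, named TARGET, the fusion protein waits in the cytoplasm until dexamethasone lets it enter the nucleus, and cycloheximide stops the cell from translating the messages of any regulator it turns on. TGA4 is a basic leucine zipper factor of the clade it shares with TGA1, which regulates nitrate responses in roots and defense responses with NPR cofactors. TGA factors bind DNA elements built around TGACG. The vector supplies far more TGA4 than the cell makes, so the assay shows what an excess of the factor can do.

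The labels matched the vectors. TGA4 stood at 47.2, 44.3 and 44.7 CPM (counts per 1000000 counts, with library sizes scaled by TMM factors) in the EV_pChx libraries and at 22217, 25170 and 25994 CPM in the TGA4_pChx libraries. Total counts were 8177924, 5555868 and 4795655 for EV_pChx and 2865079, 6530537 and 2898219 for TGA4_pChx, so that 3 counts, used below as the floor of detection, corresponded to 0.367 to 1.05 CPM. The first principal component (31.3% of the variance) separated the vectors. The second (26.5%) set TGA4_pChx replicate 1 apart from the other 5 libraries.

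With cycloheximide, TGA4 changed 357 of 18673 genes, or 1.91%, at an adjusted p under 0.05 (edgeR's quasi-likelihood test, Benjamini-Hochberg). Of these, 176 genes (0.943%) were induced and 181 (0.969%) were repressed. Fold changes below are log2 values ± SE over 3 libraries per vector, and library values are in replicate order. Changes of at least 4-fold were mostly inductions. The induced genes' log2 fold changes ran from 0.41 to 5.86 with a median of 0.84, and 18 were at or above 2. The repressed genes ran from −0.39 to −5.94 with a median of −0.77, and 5 were at or below −2. Most changes were smaller than 1 log2 unit, a size that 64 induced and 45 repressed genes reached. The TGA4_pChx libraries lay wholly above the EV_pChx libraries for 170 of the 176 induced genes (9.00% of all genes tested did so) and wholly below for 173 of the 181 repressed genes (9.30% of all). The median change over all genes tested was 0.0024, and 2430 of the 18673 had an unadjusted p under 0.05. Counts at that unadjusted threshold in the gene lists below are to be read beside this share.

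Single libraries mattered for the number of calls. Without EV_pChx replicate 1, 208 genes were called, and without EV_pChx replicate 2, 164. Leaving out TGA4_pChx replicate 2, the deepest of its group, left 108 calls, and leaving out replicate 3 left 186. Calls rose to 517 without TGA4_pChx replicate 1, of which 284 were repressed, and numbered 343 without EV_pChx replicate 3. The genes called in all 6 of these fits numbered 65 of the 176 induced and 31 of the 181 repressed, and no called gene changed sign in any of them.

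**Figure D1:**
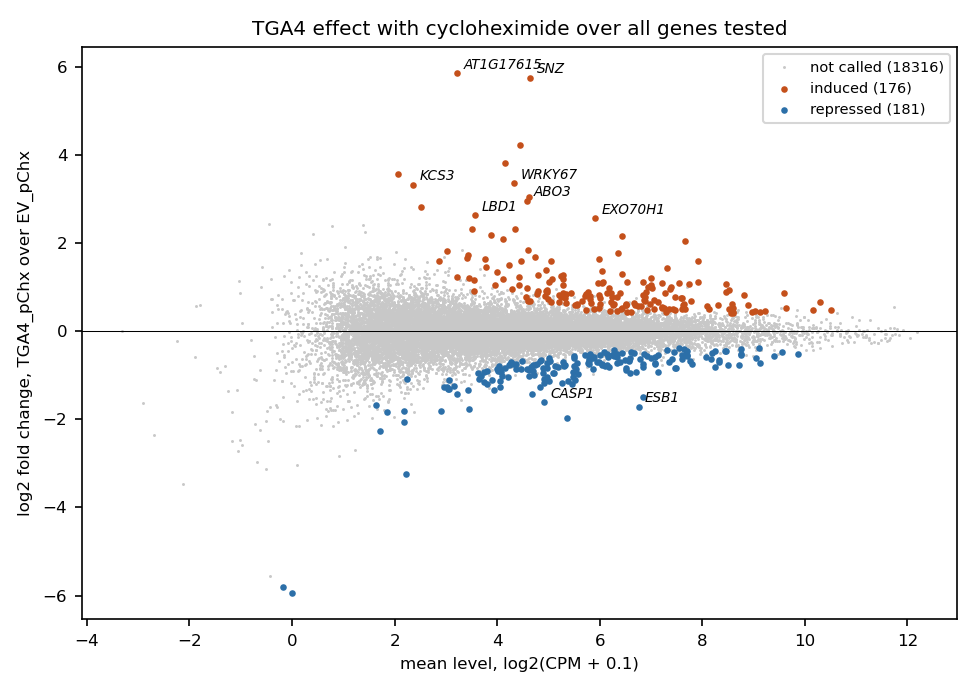
Change against level for the 18673 genes tested with cycloheximide. The x axis is the mean level over both vectors, log2(CPM + 0.1), and the y axis the log2 fold change of TGA4_pChx over EV_pChx. Each point is a gene, with the 176 induced genes in orange and the 181 repressed genes in blue. The most positive changes are those of AT1G17615 and SNZ. The most negative are those of AT5G43540 and AT3G26460, which had no counts with TGA4 and did not pass the filter in a fit of the 6 libraries alone.

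Transcription factors were among the genes with the largest inductions. SNZ, an AP2-type factor known as a repressor of flowering, was at 0.266, 1.18 and 1.43 CPM in the EV_pChx libraries and 33.8, 19.01 and 93.9 CPM in the TGA4_pChx libraries. The empty vector libraries were near the floor and all TGA4 libraries well above it, for a log2 fold change of 5.76 ± 0.72 and an adjusted p of 4.13e-05. WRKY67 rose from 4.38, 1.97 and 4.28 CPM to 23.5, 46.5 and 39.5 CPM (log2 fold change 3.35 ± 0.32, adjusted p = 1.24e-06). ABO3, also called WRKY63 and known from abscisic acid responses, rose from 5.98, 6.11 and 4.04 CPM to 40.1, 48.5 and 39.1 CPM (2.96 ± 0.22, adjusted p = 3.23e-08). Both genes belong to the group III WRKY factors, lie within 1 stretch of chromosome 1, and have close paralogs there, so reads shared between copies could blur their separate values. LBD1, of the lateral organ boundaries domain family, rose from 1.99, 4.73 and 3.33 CPM to 10.7, 23.4 and 26.6 CPM (2.63 ± 0.40, adjusted p = 5.12e-04). In LBD1, as in WRKY67, TGA4_pChx replicate 1 was the lowest of its group and still above every empty vector library.

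Among WRKY factors as a family, 5 of 54 tested were induced and 1 was repressed, beside 0.943% and 0.969% of all genes. WRKY38, a negative regulator of salicylic acid defense, moved from 84.2, 69.1 and 102 CPM to 157, 245 and 290.5 CPM (1.44 ± 0.19, adjusted p = 5.80e-05). WRKY75, known from phosphate starvation and senescence, moved from 72.8, 81.5 and 80.8 CPM to 131, 211 and 194 CPM (1.199 ± 0.13, adjusted p = 1.30e-05). The groups did not overlap for either gene. WRKY61 (log2 fold change 0.88 ± 0.21) and WRKY29 (0.53 ± 0.13) were the other induced members beside WRKY67, and ABO3 is annotated under its own symbol and not among the 54. WRKY18 was the repressed member, at 794, 799.8 and 818 CPM with the empty vector and 500.4, 568 and 556 CPM with TGA4 (−0.57 ± 0.10, adjusted p = 0.0015). WRKY61 was no longer called without EV_pChx replicate 2 or TGA4_pChx replicate 1 or 2 (adjusted p of up to 0.168) and WRKY29 without EV_pChx replicate 2 or 3 or TGA4_pChx replicate 2 (up to 0.229).

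Other regulators rose less steeply. HSFC1, a class C heat shock factor, was at 51.7, 48.6 and 48.7 CPM in EV_pChx and 112, 134 and 122 CPM in TGA4_pChx (1.31 ± 0.13, adjusted p = 2.96e-06), with both groups narrow and far apart. Its reads cannot be told apart from those of AT3G24518, a non-coding gene on the opposite strand that overlaps it and was also induced (1.11 ± 0.13), since the sources used here do not say whether counting used strand. MYB87 rose from 17.1, 20.5 and 11.9 CPM to 35.7, 61.6 and 51.97 CPM (1.60 ± 0.29, adjusted p = 0.00287), and MYB68, a root MYB factor, from 97.5, 79.6 and 93.4 CPM to 146, 149.7 and 139 CPM (0.68 ± 0.11, adjusted p = 6.71e-04). These were the only 2 of 61 MYB genes tested that were induced, beside 0.943% of all genes. MYB87 was no longer called without TGA4_pChx replicate 2 (adjusted p = 0.0796) or by DESeq2 (0.102). MYB108 was repressed, from 586, 505 and 504 CPM to 299.7, 326 and 316 CPM (−0.76 ± 0.10, adjusted p = 7.97e-05). FAF3, of a small family of shoot meristem regulators, was at 3.72, 3.94 and 2.85 CPM and 4.41, 11.7 and 21.8 CPM (1.81 ± 0.44, adjusted p = 0.0322), with replicate 1 of TGA4_pChx barely above the empty vector. It held its call in 1 of 6 leave-one-out fits and was not called without EV_pChx replicate 1, 2 or 3 or TGA4_pChx replicate 2 or 3 (adjusted p of up to 0.297). None of 59 NAC factors was called by edgeR, with 12 at an unadjusted p under 0.05 and 1 called by DESeq2.

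The other induced genes named by size included genes of secretion, lipid synthesis and hormones. EXO70H1, a subunit of the exocyst that tethers vesicles to the plasma membrane, rose from 13.3, 20.1 and 19.3 CPM to 76.5, 116 and 115 CPM (2.57 ± 0.19, adjusted p = 3.34e-08). AOC2, an allene oxide cyclase of jasmonate synthesis, rose from 3.72, 4.92 and 2.61 CPM to 16.5, 22.9 and 16.9 CPM (2.32 ± 0.32, adjusted p = 1.20e-04). GPAT1, a glycerol-3-phosphate acyltransferase, rose from 95.1, 78.4 and 60.1 CPM to 301, 374 and 302 CPM (2.06 ± 0.15, adjusted p = 2.65e-08). In all 3 genes the lowest TGA4 library was more than 3 times the highest empty vector library. KCS3, of the family that elongates very-long-chain fatty acids, stood at 0.398, 0.591 and 1.90 CPM against 9.93, 7.46 and 10.1 CPM (3.33 ± 0.71, adjusted p = 0.0121). Its empty vector values reached down to near the floor, and its call was lost without EV_pChx replicate 1 or 2 or TGA4_pChx replicate 2 or 3 (adjusted p of up to 0.0861).

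CKX5, a cytokinin oxidase that degrades cytokinins, rose from 29.2, 26.2 and 38.03 CPM to 68.4, 103 and 116 CPM (1.63 ± 0.18, adjusted p = 7.60e-06). UBC16, a ubiquitin-conjugating enzyme whose gene overlaps CKX5 on the opposite strand, rose from 11.95, 8.47 and 12.1 CPM to 30.2, 32.7 and 35.9 CPM (1.59 ± 0.19, adjusted p = 2.13e-05). Reads in the shared stretch could have been counted for either gene. WAKL4, a wall-associated kinase-like gene, rose from 37.7, 35.3 and 38.7 CPM to 90.09, 149 and 143 CPM (1.78 ± 0.17, adjusted p = 1.17e-06). UMAMIT33, of the family of amino acid exporters, rose from 9.30, 5.91 and 4.04 CPM to 21.7, 21.8 and 18.5 CPM (1.63 ± 0.26, adjusted p = 8.69e-04). GEA6, a late embryogenesis abundant protein, rose from 9.30, 11.4 and 10.9 CPM to 25.00, 34.99 and 53.2 CPM (1.83 ± 0.26, adjusted p = 2.01e-04), and NIP2, a NEP-interacting protein and not the aquaporin of that abbreviation, from 4.52, 5.91 and 5.70 CPM to 17.3, 27.4 and 26.99 CPM (2.18 ± 0.24, adjusted p = 9.39e-06). In each of these 6 genes the groups were separate. TGA4_pChx replicate 1 was the lowest TGA4 library in all but UMAMIT33.

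**Figure D2:**
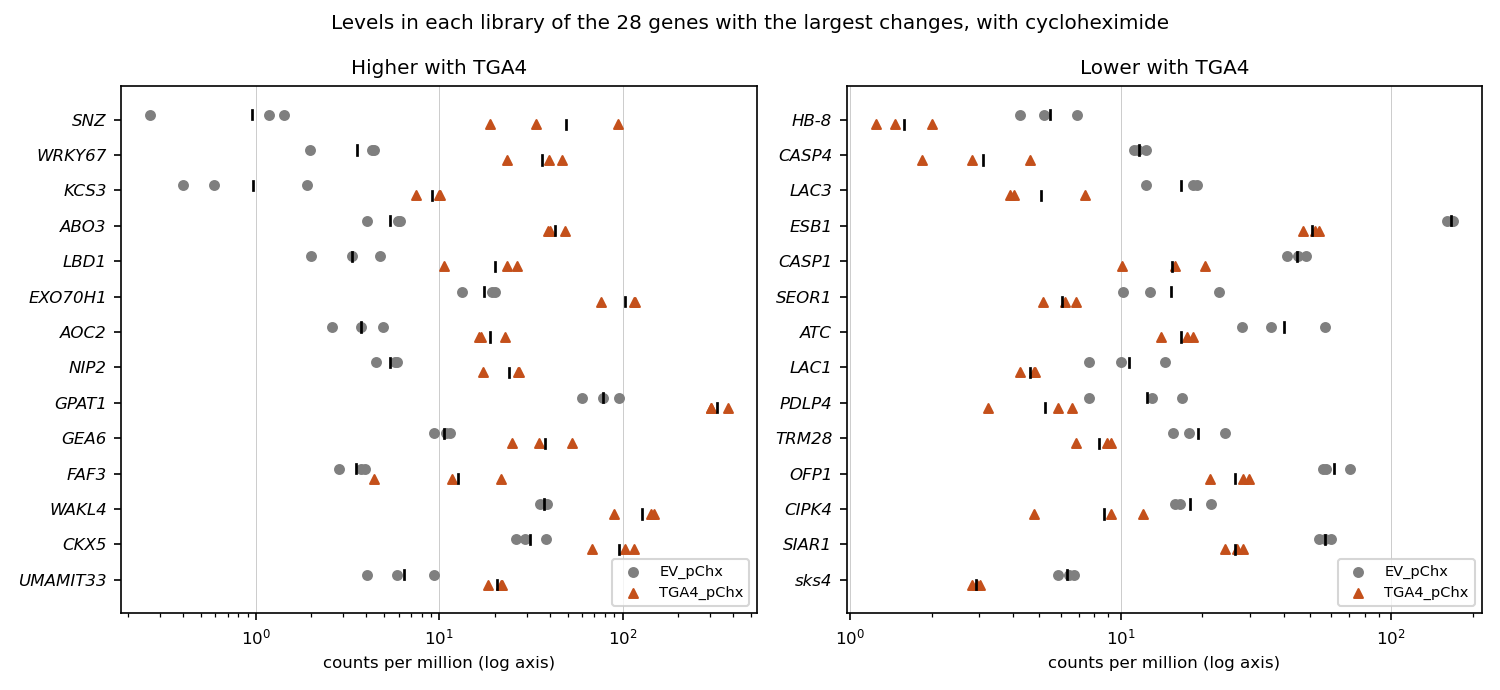
Levels of the 14 induced and 14 repressed genes with the largest changes, named by a rule on significance, overlap, level and symbol. The x axis is CPM on a log axis, grey circles are the 3 EV_pChx libraries, orange triangles the 3 TGA4_pChx libraries and black ticks the group means. The rule required separate groups, and of the 28 genes they lie closest in FAF3 (3.94 against 4.41 CPM).

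Genes without a symbol were among the most significant. AT1G17615, a TIR-type disease resistance protein, had 0.531, 0 and 0.238 CPM in the EV_pChx libraries and 8.46, 27.00 and 19.3 CPM in the TGA4_pChx libraries (5.86 ± 0.61, adjusted p = 9.12e-06), the largest fitted induction. With the empty vector at or below the floor in all but 1 library, its size depends on the prior count of the fit. AT5G48430, an aspartyl protease, rose from 38.3, 25.01 and 31.1 CPM to 121, 149 and 152 CPM (2.15 ± 0.17, adjusted p = 1.04e-07). AT5G49440, which codes for an uncharacterized protein, rose from 97.9, 125 and 139 CPM to 289, 394 and 409.7 CPM (1.60 ± 0.14, adjusted p = 3.53e-07). All 3 kept their calls in every leave-one-out fit.

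Some called genes were neighbours. Of the 357 called genes, 52 lay in 24 runs of at least 2 called genes adjacent among the IDs listed, and in 23 of these runs all genes moved one way. The number of runs that genes drawn at random would give was not computed, so these counts do not show clustering. The longest run held 4 induced genes on chromosome 5, from AT5G23340 (start 7856039) to AT5G23370 (end 7864291). AT5G23350, AT5G23360 and AT5G23370 code for GRAM domain proteins, known from abscisic acid responses. AT5G23350 rose from 2.39, 2.56 and 1.43 CPM to 14.3, 49.6 and 59.6 CPM (4.23 ± 0.50, adjusted p = 2.40e-05), and AT5G23370 from 1.59, 3.74 and 1.90 CPM to 17.3, 42.8 and 39.1 CPM (3.81 ± 0.44, adjusted p = 1.81e-05). AT5G23360 had 1.195, 0.197 and 0.238 CPM against 3.31, 8.70 and 10.9 CPM (3.57 ± 0.79, adjusted p = 0.0174). All TGA4 libraries were above all empty vector libraries in the 3 genes. The 3 genes share a domain, so reads may have been divided between them. The fourth gene, AT5G23340, which codes for a protein of another family, changed by 0.87 ± 0.17 (adjusted p = 0.00605). AT5G23360 was no longer called without EV_pChx replicate 2 or 3 or TGA4_pChx replicate 2 or 3 (adjusted p of up to 0.115) and AT5G23340 without EV_pChx replicate 2 or TGA4_pChx replicate 2 or 3 (up to 0.0617).

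A second run on chromosome 1 held WAKL2, WAKL4 and WAKL5 (5525293 to 5538501). WAKL2 rose from 90.7, 79.6 and 114 CPM to 168, 225 and 214 CPM (1.098 ± 0.14, adjusted p = 4.26e-05) and WAKL5 from 6.38, 7.48 and 8.32 CPM to 17.3, 22.9 and 19.3 CPM (1.45 ± 0.34, adjusted p = 0.0246). No other of the 9 wall-associated kinase genes tested was called, beside 0.943% induced and 0.969% repressed among all genes. WAKL5 lost its call without EV_pChx replicate 1 or 2 or TGA4_pChx replicate 2 or 3 (adjusted p of up to 0.214). All 3 genes had separate groups. ABO3 and AT1G66610, a TRAF-like gene next to it (24849716 to 24851450), formed a pair, with AT1G66610 rising from 5.31, 4.92 and 5.70 CPM to 47.1, 46.9 and 37.1 CPM (3.04 ± 0.26, adjusted p = 1.84e-07). The third run of 3 genes, MC3, AT5G64250 and EXL2 on chromosome 5, changed little (log2 fold changes of 0.66 ± 0.16, 0.51 ± 0.11 and 0.67 ± 0.15) and its genes were called in 1, 3 and 2 of 6 leave-one-out fits (adjusted p of up to 0.146, 0.0794 and 0.153).

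Overlapping genes account for part of these runs. Among the called genes 31 overlapped another called gene, in 16 pairs, of which 15 moved one way. All 3 induced non-coding genes and 3 of 9 repressed non-coding genes were in such pairs. Since the use of strand is not stated, the calls of both partners cannot be counted as separate. Of the 24 runs, only the pair of AT2G36090 and CASP1, which overlap at their ends, moved in opposite directions. AT2G36090, an F-box gene, rose from 8.77, 4.73 and 5.47 CPM to 35.3, 26.5 and 22.96 CPM (2.101 ± 0.26, adjusted p = 3.36e-05).

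The exocyst group held 4 induced genes of 19 EXO70 genes tested, beside 0.943% of all genes, and no repressed gene. All 4 were of the H class. Beside EXO70H1, EXO70H7 rose from 210.4, 255 and 283 CPM to 392, 499 and 483 CPM (0.88 ± 0.12, adjusted p = 1.76e-04), EXO70H2 from 143, 82.5 and 109 CPM to 233, 226 and 211 CPM (1.00 ± 0.15, adjusted p = 5.12e-04) and EXO70H4 from 24.04, 27.6 and 35.2 CPM to 47.8, 55.1 and 52.4 CPM (0.86 ± 0.19, adjusted p = 0.0175). EXO70H2 and EXO70H7 are each overlapped by another induced gene on the opposite strand, AT2G39375 and AT5G59732. The groups were separate in all 4. EXO70H4 lost its call without EV_pChx replicate 1 or 2 or TGA4_pChx replicate 2 or 3 (adjusted p of up to 0.136). This group, like those of Casparian strip, suberin, GH3 and wall-associated kinase genes, was put together after the values were seen, and its count is a description.

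Sulfur genes, named after their values were seen, included SULTR3;1, a sulfate transporter, which rose from 8.50, 10.2 and 10.7 CPM to 19.1, 30.4 and 33.4 CPM (1.51 ± 0.23, adjusted p = 4.81e-04), and APS3, an ATP sulfurylase, which rose from 14.1, 16.5 and 20.9 CPM to 36.4, 42.1 and 55.2 CPM (1.38 ± 0.23, adjusted p = 0.00148). SUFE2, a sulfur donor for iron-sulfur clusters, was at 17.399, 18.9 and 25.4 CPM and 33.5, 49.9 and 47.5 CPM (1.11 ± 0.23, adjusted p = 0.00954), but was no longer called without EV_pChx replicate 1 or 2 or TGA4_pChx replicate 2 or 3 (up to 0.123). APR2, which reduces activated sulfate, was not called (0.39 ± 0.16, adjusted p = 0.278). The groups were separate for the first 3 genes. The sulfur genes were picked singly and not from a list, so no share of such genes called can be given.

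Genes of the endodermis were among the repressed genes named by size, 4 of 14. The Casparian strip is a lignin band that seals the root endodermis, laid down where CASP proteins gather the enzymes that build it. ESB1, a dirigent protein of the strip, stood at 168, 161 and 169 CPM in the EV_pChx libraries and 52.2, 47.1 and 53.98 CPM in the TGA4_pChx libraries. Both groups were tight and far apart, with a log2 fold change of −1.71 ± 0.12 and an adjusted p of 1.29e-08, the smallest of any repressed gene. CASP1 fell from 48.5, 41.2 and 45.2 CPM to 15.8, 10.1 and 20.5 CPM (−1.62 ± 0.21, adjusted p = 7.37e-05) and CASP4 from 11.6, 12.4 and 11.2 CPM to 1.84, 4.62 and 2.82 CPM (−1.80 ± 0.34, adjusted p = 0.0043). LAC3, a laccase of the strip, fell from 19.1, 12.4 and 18.5 CPM to 7.35, 3.91 and 4.03 CPM (−1.76 ± 0.28, adjusted p = 9.02e-04). All 4 kept their calls in every leave-one-out fit. ESB1 overlaps most of AT2G28671 on the opposite strand, a gene that fell alongside it (−1.49 ± 0.14, adjusted p = 9.48e-07).

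Not every gene of the strip passed the test. Of 13 Casparian strip genes 11 were tested, 4 were repressed and none was induced, beside 0.969% and 0.943% of all genes. Their median was −0.87, beside 0.0024 for all genes. CASP2 had 6.38, 6.30 and 6.66 CPM and 2.57, 1.60 and 3.63 CPM (−1.39 ± 0.46, adjusted p = 0.143). MYB36, the factor that switches on the strip's genes, had 25.2, 21.3 and 24.7 CPM and 23.5, 15.6 and 22.2 CPM (−0.25 ± 0.21, adjusted p = 0.691), groups that overlapped. SGN3, the receptor that checks the strip's integrity (GSO1 in the annotation), had 100.3, 68.1 and 62.3 CPM and 83.8, 68.03 and 70.9 CPM (−0.07 ± 0.15, adjusted p = 0.914). SCR, which specifies the endodermis, had a log2 fold change of 0.14 ± 0.26 (adjusted p = 0.899).

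Suberin, the waxy polymer of older endodermis, showed smaller changes. Of 18 genes tested 4 were repressed and none induced, beside 0.969% and 0.943% of all genes, with a median of −0.35. KCS2, a fatty acid elongase, fell from 289, 201 and 189.9 CPM to 131, 119.7 and 133 CPM (−0.83 ± 0.13, adjusted p = 8.08e-04), and RWP1, the feruloyl transferase also called ASFT, from 154, 163 and 119 CPM to 94.9, 74.96 and 78.96 CPM (−0.82 ± 0.15, adjusted p = 0.00452). CYP86A1, a fatty acid hydroxylase, went from 347, 243 and 204 CPM to 224, 131 and 144 CPM (−0.69 ± 0.17) and CYP86B1, another, from 55.1, 51.01 and 27.3 CPM to 36.4, 19.01 and 16.9 CPM (−0.94 ± 0.24). The vectors overlapped in both hydroxylases, where TGA4_pChx replicate 1 was high and EV_pChx replicate 3 low, and were separate in KCS2 and RWP1. KCS2, which AT1G04247 overlaps on the opposite strand, kept its call in every leave-one-out fit. RWP1 lost its call without TGA4_pChx replicate 2 (adjusted p = 0.0646), and both hydroxylases without EV_pChx replicate 1 or 2 or TGA4_pChx replicate 2 or 3 (up to 0.28 and 0.323). Neither hydroxylase was called with the 6 libraries alone (0.0971 and 0.089), nor CYP86B1 by DESeq2 (adjusted p = 0.107). GPAT5, an acyltransferase of the pathway, had 110.2, 92.4 and 80.1 CPM and 86.04, 68.4 and 68.5 CPM (−0.36 ± 0.13, adjusted p = 0.204).

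The summed levels of cell type markers are given beside these results, with repressed markers to be read beside 0.969% of all genes. The 7 markers of cortex and endodermis fixed for the sample summed to 304 to 356 CPM in the EV_pChx libraries and to 152 to 188 CPM in the TGA4_pChx libraries, with 2 of 6 tested markers repressed (CASP1 and ESB1) and the cortex marker AT1G62500 at 0 in all 6 libraries. The sum holds the repressed genes themselves. Without CASP1 and ESB1 (chosen after the values were seen) it was 102 to 140.3 CPM and 94.7 to 119.5 CPM, ranges that overlap. These 2 were left out because they were called, so a smaller change in the rest was built in and the overlap tests nothing. Without cycloheximide, the sum of all 7 markers was 409 to 455 CPM for the empty vector and 273 to 311 CPM for TGA4. With CASP1 and ESB1 left out it was 193 to 220 CPM and 196 to 222 CPM there, again overlapping. Stele markers summed to 274 to 299 CPM and 207 to 266 CPM, with SUC2 and APL repressed, the others of 6 tested not. Root hair and epidermis markers summed to 19.1 to 42.0 and 27.0 to 51.1 CPM, and root cap markers to 15.7 to 26.4 and 9.56 to 16.5 CPM, with none called. Leaf markers summed to 1.90 to 6.24 and 5.51 to 7.72 CPM, with RBCS1B and LHCB1.1 at 0 throughout. Fewer cells of a type and less RNA per cell cannot be told apart in these samples, and the part of cell mixture in the results was not tested. The study's 25 housekeeping genes held 0 calls by edgeR, 0 at an unadjusted p under 0.05 and 0 by DESeq2, with a median of −0.01.

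**Figure D3:**
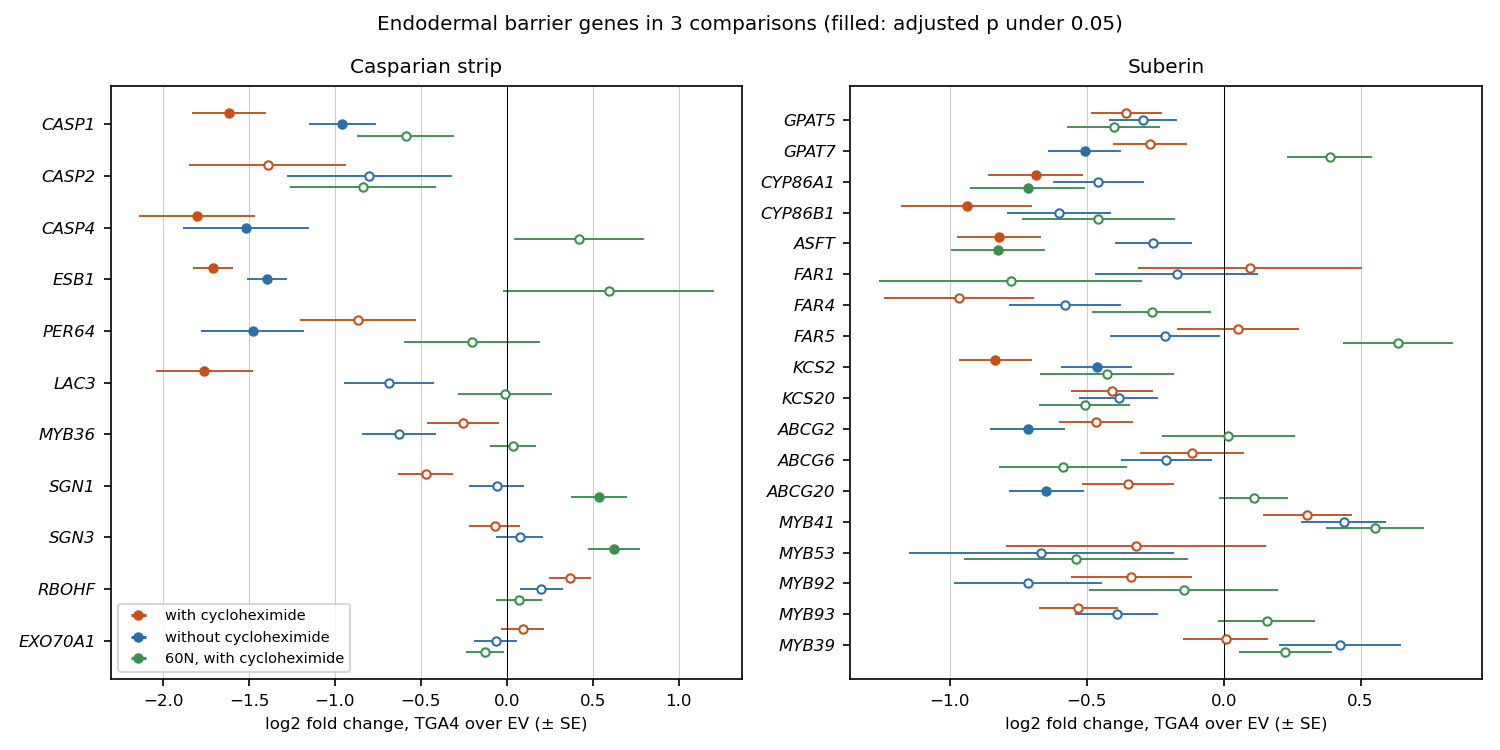
TGA4 effect on Casparian strip genes (left, 11 tested) and suberin genes (right, 18 tested). The x axis is the log2 fold change of TGA4 over the empty vector with its SE, in orange with cycloheximide, in blue without it and in green at 60N. Filled points have an adjusted p under 0.05. CASP1, CASP4 and ESB1 were called in the TGA4_pChx and TGA4_mChx comparisons and not at 60N, LAC3 only in the TGA4_pChx comparison, and SGN1 and SGN3 only at 60N, as induced.

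Vascular genes appeared among the other repressed genes. HB-8, a class III homeodomain factor of procambium, fell from 4.25, 6.89 and 5.23 CPM to 1.47, 1.24 and 2.01 CPM (−1.83 ± 0.40, adjusted p = 0.0165). SEOR1, a structural protein of phloem sieve elements, was at 12.9, 23.04 and 10.2 CPM and 5.15, 6.22 and 6.85 CPM (−1.34 ± 0.34, adjusted p = 0.0456). SUC2, the sucrose loader of phloem companion cells, and APL, a phloem identity factor, changed by −0.72 ± 0.17 and −0.60 ± 0.14 (adjusted p = 0.0266 and 0.0265). All 4 had separate groups, but the calls depended on single libraries. HB-8 was not called without EV_pChx replicate 2 or TGA4_pChx replicate 2 (adjusted p of up to 0.168), SEOR1 without EV_pChx replicate 1 or 2 or TGA4_pChx replicate 1, 2 or 3 (up to 0.301), and SUC2 and APL without EV_pChx replicate 1 or 2 or TGA4_pChx replicate 2 or 3 (up to 0.162 and 0.195). IRX3, a cellulose synthase of xylem walls (−0.13 ± 0.27), and SKOR, a potassium channel of the stele (−0.12 ± 0.13), were not called.

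ATC, a relative of TFL1 that delays flowering, fell from 56.8, 35.8 and 28.05 CPM to 17.65, 18.5 and 14.1 CPM (−1.27 ± 0.20, adjusted p = 8.88e-04). OFP1, a transcriptional repressor of the OVATE family, fell from 70.3, 55.7 and 57.5 CPM to 21.3, 29.8 and 28.2 CPM (−1.198 ± 0.17, adjusted p = 1.83e-04). SIAR1, an amino acid exporter of the UMAMIT family, fell from 59.6, 56.9 and 54.2 CPM to 26.8, 24.3 and 28.2 CPM (−1.12 ± 0.14, adjusted p = 5.80e-05), a narrow spread on both sides. These 3 kept their calls in every leave-one-out fit. The other genes named by size were LAC1, a laccase (14.6, 10.04 and 7.61 CPM to 4.78, 4.26 and 4.83 CPM, −1.26 ± 0.33), PDLP4, a plasmodesmata protein (16.9, 13.00 and 7.61 CPM to 6.62, 5.86 and 3.22 CPM, −1.25 ± 0.30), TRM28 (24.3, 15.6 and 17.8 CPM to 9.19, 8.88 and 6.85 CPM, −1.204 ± 0.27), CIPK4, a calcium sensor-dependent kinase (21.6, 16.5 and 15.9 CPM to 9.19, 4.796 and 12.1 CPM, −1.16 ± 0.27), and sks4, a multicopper oxidase-like gene (5.84, 6.70 and 6.42 CPM to 2.94, 3.02 and 2.82 CPM, −1.09 ± 0.28). Their adjusted p-values of 0.0184 to 0.048 sat near the threshold. The groups were separate by the rule that named them. LAC1 was called in 1 of 6 leave-one-out fits (adjusted p of up to 0.279), PDLP4 in 2 (up to 0.182), TRM28 in 3 (up to 0.151), CIPK4 in 3 (up to 0.229) and sks4 in 0 (up to 0.192). DESeq2 did not call sks4 either (adjusted p = 0.0618).

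Of the repressed genes chosen for the smallest p, AT3G55230, a dirigent-like gene, fell from 75.7, 66.96 and 54.4 CPM to 18.02, 17.2 and 14.5 CPM (−1.98 ± 0.17, adjusted p = 2.87e-07). ADH1, alcohol dehydrogenase, fell from 193, 184 and 174 CPM to 113, 93.8 and 82.6 CPM (−0.93 ± 0.11, adjusted p = 3.25e-05). AT3G11930 fell from 31.6, 42.1 and 38.7 CPM to 14.3, 14.6 and 12.5 CPM (−1.42 ± 0.19, adjusted p = 7.59e-05). All were separate by vector and called in every leave-one-out fit. AT3G26460 and AT5G43540 had 27 and 28 counts over the 3 EV_pChx libraries and none over the TGA4_pChx libraries, so they were at least 5.80-fold and 6.01-fold lower with TGA4, taking 3 counts over the group as the floor. AT3G26460 lost its call without TGA4_pChx replicate 2 (adjusted p = 0.106), and AT5G43540 in every leave-one-out fit (up to 0.235). With the 6 libraries alone neither gene passed the filter on low counts, and DESeq2 gave AT5G43540 no adjusted p.

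Auxin genes moved in both directions. Aux/IAA proteins repress auxin responses and are themselves induced by auxin. They had 4 repressed genes of 19 tested and none induced, beside 0.969% and 0.943% of all genes, with a median of −0.31. IAA2 fell from 229.8, 238 and 223 CPM to 136, 135 and 116 CPM (−0.83 ± 0.10, adjusted p = 4.18e-05), with no overlap and a call in every leave-one-out fit. IAA1 fell from 26.4, 26.98 and 26.9 CPM to 13.2, 17.1 and 13.3 CPM (−0.85 ± 0.22), IAA7 from 72.9, 80.4 and 81.05 CPM to 57.4, 40.7 and 46.7 CPM (−0.71 ± 0.14) and IAA9 from 226, 232 and 220.1 CPM to 192, 166 and 159 CPM (−0.40 ± 0.10). PIN3, an auxin efflux carrier, was also repressed (34.8, 25.6 and 23.5 CPM to 14.3, 13.1 and 20.5 CPM, −0.85 ± 0.20). Of 8 GH3 genes tested, which attach amino acids to auxin and other hormones, GH3.3 (280.1, 308 and 384 CPM to 402, 658 and 653 CPM, 0.82 ± 0.20), GH3.17 (30.7, 29.7 and 23.8 CPM to 55.2, 50.1 and 38.3 CPM, 0.77 ± 0.16) and BRU6 (0.46 ± 0.11) were induced, beside 0.943% of all genes. The vectors were separate in all of these genes. Apart from IAA2, each call was lost without at least 1 library, TGA4_pChx replicate 2 among them. The highest adjusted p-values were 0.192 for IAA1, 0.099 for IAA7, 0.217 for IAA9, 0.246 for PIN3, 0.219 for GH3.3, 0.102 for GH3.17 and 0.229 for BRU6. GH3.3 was also not called by DESeq2 (adjusted p = 0.531).

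To relate the calls to sequence, the window from 250 bases before to 50 bases after each gene's annotated start was searched on both strands for TGACGT, an element that TGA factors bind. It was present in 36 of 176 induced genes (20.5%), in 18 of 181 repressed genes (9.94%) and in 1781 of all 18673 genes tested (9.54%). The shorter core TGACG, part of TGACGT, was present in 34.7% of induced, 19.3% of repressed and 24.0% of all genes. Among the genes named by size, TGACGT was in 4 of 14 induced and 2 of 14 repressed genes, whose windows are shown from 250 bases before to 10 bases after the start (RefSeq TAIR10.1, gene strand, 5′ to 3′, TGACGT or its complement in capitals) because they show where the element lies relative to the start.
LBD1, chr1:2442320-2442579, plus strand: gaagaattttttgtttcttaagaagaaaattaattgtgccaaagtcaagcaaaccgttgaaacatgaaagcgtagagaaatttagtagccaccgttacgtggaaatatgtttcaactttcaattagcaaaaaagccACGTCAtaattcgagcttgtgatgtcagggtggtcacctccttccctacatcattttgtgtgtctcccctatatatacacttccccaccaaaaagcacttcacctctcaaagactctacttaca
GEA6, chr2:16780359-16780618, minus strand: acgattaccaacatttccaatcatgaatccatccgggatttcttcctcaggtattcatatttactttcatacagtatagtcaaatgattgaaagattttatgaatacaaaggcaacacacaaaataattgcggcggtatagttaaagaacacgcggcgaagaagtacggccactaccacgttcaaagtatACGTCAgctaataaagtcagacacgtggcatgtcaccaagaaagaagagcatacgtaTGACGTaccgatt
WAKL4, chr1:5532048-5532307, plus strand: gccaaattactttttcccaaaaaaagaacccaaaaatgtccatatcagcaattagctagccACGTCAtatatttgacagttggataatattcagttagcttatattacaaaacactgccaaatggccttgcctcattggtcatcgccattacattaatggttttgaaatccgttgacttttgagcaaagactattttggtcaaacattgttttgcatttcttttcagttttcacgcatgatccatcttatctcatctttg
CKX5, chr1:28318366-28318625, minus strand: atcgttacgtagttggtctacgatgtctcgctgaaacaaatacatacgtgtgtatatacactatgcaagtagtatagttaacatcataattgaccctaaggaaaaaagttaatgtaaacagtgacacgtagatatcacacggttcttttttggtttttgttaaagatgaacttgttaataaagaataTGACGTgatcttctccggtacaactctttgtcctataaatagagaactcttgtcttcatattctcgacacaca
ATC, chr2:11772937-11773196, plus strand: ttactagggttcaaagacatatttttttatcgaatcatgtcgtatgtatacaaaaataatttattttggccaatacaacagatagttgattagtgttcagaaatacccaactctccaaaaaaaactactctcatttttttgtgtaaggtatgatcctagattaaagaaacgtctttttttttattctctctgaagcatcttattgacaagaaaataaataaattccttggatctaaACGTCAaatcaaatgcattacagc
sks4, chr4:11662936-11663195, plus strand: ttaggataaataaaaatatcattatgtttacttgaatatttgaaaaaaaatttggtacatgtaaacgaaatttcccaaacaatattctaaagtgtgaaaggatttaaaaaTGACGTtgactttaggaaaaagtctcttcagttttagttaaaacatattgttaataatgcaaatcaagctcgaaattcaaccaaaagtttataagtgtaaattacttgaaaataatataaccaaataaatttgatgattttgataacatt

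In LBD1 the element began 114 bases before the start, in WAKL4 189 bases and in CKX5 63 bases before it. GEA6 held 2 copies, one 60 bases before the start and one that spans it. Among the repressed genes, ATC held it 14 bases and sks4 140 bases before the start. A match is a description of letters and was not tested as a binding site.

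Genes tied to TGA factors by function were counted next. None of 8 other TGA genes tested was called by edgeR (median −0.10), with 1 at an unadjusted p under 0.05 and 0 called by DESeq2, TGA1 being at 204, 203 and 218 CPM and 208, 206 and 187 CPM (−0.05 ± 0.10, adjusted p = 0.904). Of 6 NPR and NIMIN cofactor genes, which code for the salicylic acid receptors and their partners, 2 were induced, beside 0.943% of all genes. NPR3 rose from 467, 477 and 469 CPM to 567, 703 and 647 CPM (0.44 ± 0.10, adjusted p = 0.0265) and NPR4 from 15.8, 15.95 and 20.7 CPM to 23.9, 33.6 and 31.02 CPM (0.78 ± 0.20, adjusted p = 0.0408). NPR1 was at 73.1, 72.7 and 81.8 CPM and 59.6, 82.4 and 84.6 CPM (adjusted p = 0.998). The groups were separate for NPR3 and NPR4 and overlapped for NPR1. NPR3 was not called without EV_pChx replicate 1, 2 or 3 or TGA4_pChx replicate 2 or 3 (adjusted p of up to 0.193), nor NPR4 without EV_pChx replicate 1 or 2 or TGA4_pChx replicate 2 or 3 (up to 0.274).

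CC-type glutaredoxins, small redox proteins that bind TGA factors, had 1 induced gene of 7 tested, beside 0.943% of all genes, and a median of 0.73. An unadjusted p under 0.05 was reached by 5 of the 7, beside 2430 of all 18673 genes. GRXS3, 1 of the 5, was lower with TGA4 (−2.69 ± 0.80) and the others were higher. GRXS13 was at 62.2, 77.8 and 109.6 CPM and 127, 174 and 212 CPM (1.05 ± 0.21, adjusted p = 0.00816), every TGA4 library being above every empty vector library. Its call was lost without EV_pChx replicate 1 or 2 or TGA4_pChx replicate 2 or 3 (up to 0.0705) and with DESeq2, which called 0 of the 7. GRX480 was at 428, 453 and 505 CPM and 439.8, 633 and 727 CPM (0.38 ± 0.14, adjusted p = 0.204), an overlap between vectors. Tau-class glutathione S-transferases, detoxification enzymes that TGA factors of another clade regulate, had 1 induced and 2 repressed genes of 23 tested, beside 0.943% and 0.969% of all genes. GSTU6 fell from 66.9, 55.1 and 58.5 CPM to 31.99, 35.5 and 31.4 CPM (−0.86 ± 0.14, adjusted p = 7.36e-04) and kept its call in every leave-one-out fit. GSTU9 (1.101 ± 0.24) and GSTU4 (−0.49 ± 0.12) were not called without EV_pChx replicate 1 or 2 or TGA4_pChx replicate 2 or 3 (adjusted p of up to 0.159 and 0.181). None of 14 genes of xenobiotic and oxylipin detoxification was called by edgeR or DESeq2, with 3 at an unadjusted p under 0.05 and a median of 0.07.

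Nitrogen genes, the subject of the study, held 2 induced genes and no repressed gene of 26 tested in uptake and assimilation. This stands beside 0.943% and 0.969% of all genes, and the median was 0.09. WR3 (also called NRT3.1 or NAR2.1, the partner of the high-affinity nitrate transporters) rose from 155, 156 and 162 CPM to 217, 247 and 256 CPM (0.61 ± 0.10, adjusted p = 0.00123). GDH2, a glutamate dehydrogenase, rose from 222, 228 and 242 CPM to 318, 344 and 319 CPM (0.51 ± 0.10, adjusted p = 0.00617). Both had tight groups that did not overlap, at changes under 2-fold. WR3 kept its call in every leave-one-out fit, and GDH2 lost it without TGA4_pChx replicate 2 (adjusted p = 0.0619). None of 19 nitrogen response regulators was called by edgeR or DESeq2 (median 0.05), with 4 at an unadjusted p under 0.05.

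Defense hormone genes held 5 calls, read beside 1.91% of all genes. Of 15 salicylic acid and systemic immunity genes tested, WRKY38 was induced and EDS5, the exporter of a salicylic acid precursor, repressed (140.3, 160.3 and 161 CPM to 89.4, 112 and 99.9 CPM, −0.61 ± 0.15, adjusted p = 0.03), with 4 at an unadjusted p under 0.05 and a median of 0.08. PR1 and PR2, the classic output genes of the pathway, were at 0 in all 6 libraries. Of 26 jasmonate genes, AOC2 and LOX6, a lipoxygenase (98.02, 77.2 and 69.4 CPM to 132, 133 and 108 CPM, 0.60 ± 0.13), were induced and TIFY10B, the repressor JAZ2, was repressed (519, 488 and 477 CPM to 361, 364 and 394 CPM, −0.41 ± 0.10), with 11 at an unadjusted p under 0.05 and a median of −0.20. The groups were separate in EDS5, LOX6 and TIFY10B, whose calls were lost in 5, 3 and 5 of 6 leave-one-out fits, that without TGA4_pChx replicate 2 among them (adjusted p of up to 0.14, 0.1 and 0.17). No heat shock gene of 18 was called by edgeR or DESeq2 (median −0.03), with 2 at an unadjusted p under 0.05.

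Other families were counted in the same way, beside 0.943% induced and 0.969% repressed among all genes. Cytochrome P450 genes had 6 repressed of 106 tested and none induced, CYP81F4 of indole glucosinolate synthesis (75.97, 48.4 and 53.00 CPM to 32.7, 26.1 and 29.8 CPM, −1.03 ± 0.24) and the 2 suberin hydroxylases among them. CYP81F4 shares nearly its whole length with AT4G37409 on the opposite strand, which fell by 1.11 on the log2 scale and was not called by DESeq2 (adjusted p = 0.0554). Cysteine-rich receptor kinases had 2 induced of 21, CRK28 (0.67 ± 0.17) and CRK29 (0.61 ± 0.12), which are adjacent and overlap. Aquaporins had NIP1;2 induced (26.2, 31.5 and 27.6 CPM to 38.2, 41.9 and 54.8 CPM, 0.65 ± 0.15) and PIP1A repressed (96.96, 78.2 and 73.4 CPM to 66.2, 44.9 and 35.9 CPM, −0.77 ± 0.18) of 22. ERF6, an early stress factor, was the 1 repressed gene of 43 ERF and DREB genes (−0.51 ± 0.12, adjusted p = 0.0256). GSTF10, XTH11, UMAMIT30, CYP86A2, CYP87A2 and CYP89A7 were repressed and UGT89B1, CML11 and PRX52 induced, each by less than 1 log2 unit. The genes of these families named above all lost their calls without TGA4_pChx replicate 2, among other libraries for most, with adjusted p-values of up to 0.193 for CYP81F4, 0.274 for CRK28, 0.0904 for CRK29, 0.17 for NIP1;2, 0.168 for PIP1A and 0.159 for ERF6. Of 10 expansins and 3 SAUR genes tested none was called by edgeR or DESeq2, with 0 and 1 at an unadjusted p under 0.05, and of 7 NPF transporters none by edgeR and 1 by DESeq2, with 3 at an unadjusted p under 0.05.

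Named genes that an uncalled gene overlaps, so that reads may be shared, are UMAMIT33, TRM28, ADH1, GSTU6, EDS5, WRKY61, WRKY29, IAA9, CYP86A2, GSTF10, RWP1, WAKL2, APS3 and AT5G21940.

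To see how far the effects depend on cycloheximide, the TGA4 effect was also estimated without it and the difference was tested. Without cycloheximide, TGA4 changed 1097 genes (5.87% of those tested). Of the 176 genes induced with cycloheximide, 166 had the same sign without it and 126 were also called. Of the 181 repressed genes, 173 had the same sign and 105 were called. These comparisons share transfections, not libraries. The difference itself was called for 24 genes (0.129%), with 4 higher and 20 lower with cycloheximide, and only 5 of the 24 were among the 357.

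GRXS13, AT3G13600, SIAR1, UBC16 and EXL4 were those 5. For GRXS13 the effect without cycloheximide was 3.64 ± 0.29, from 6.09, 4.18 and 10.6 CPM to 72.2, 110.4 and 79.1 CPM, and the difference was −2.59 log2 units (adjusted p = 0.00122). AT3G13600, a calmodulin-binding protein gene, rose from 543, 514 and 581 CPM to 857, 1071 and 1070.0 CPM with cycloheximide (0.87 ± 0.11) and from 26.3, 20.4 and 23.8 CPM to 108, 113 and 102 CPM without it (2.21 ± 0.13), a difference of −1.34 (adjusted p = 4.82e-04). In both genes the empty vector level was many times higher with cycloheximide and the relative step to TGA4 smaller. UBC16 showed the reverse. It was at 19.2, 21.2 and 22.3 CPM and 18.7, 15.2 and 21.8 CPM without cycloheximide (−0.16 ± 0.19), and the difference was 1.75 (adjusted p = 0.00316). EXL4, an EXORDIUM-like gene, rose from 24.3, 23.63 and 19.3 CPM to 47.8, 57.02 and 56.4 CPM with cycloheximide (1.26 ± 0.16) and changed by −0.19 ± 0.18 without it, a difference of 1.45 (adjusted p = 0.00989).

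SIAR1 changed in opposite directions. It stood at 87.5, 79.3 and 76.3 CPM and 119, 146 and 101 CPM without cycloheximide, called as an increase (0.59 ± 0.13, adjusted p = 0.00618), and fell with it, a difference of −1.71 (adjusted p = 1.08e-04). GRX480, AT4G37432, a non-coding gene, and RAV1 were called for the difference without being called with cycloheximide. GRX480 rose from 1.60, 1.13 and 1.48 CPM to 20.96, 15.2 and 16.3 CPM without cycloheximide, RAV1, a repressor of growth and flowering, from 10.6, 12.9 and 12.99 CPM to 37.4, 34.8 and 36.5 CPM, and AT4G37432 from 23.1, 15.1 and 15.6 CPM to 87.6, 127 and 128 CPM. With cycloheximide RAV1 was at 664, 629.6 and 661 CPM and 572, 787 and 669 CPM, many times its level without the drug and with the vectors overlapping. AT4G37432 was at 10.2, 13.4 and 10.7 CPM and 17.3, 12.8 and 10.1 CPM. Over both vectors, cycloheximide raised 1197 and lowered 91 genes more than 5-fold, and the study set such genes aside. They include 34 of the 176 induced genes (WRKY67, EXO70H1 and WRKY38 among them) and 26 of the 181 repressed genes (16 raised and 10 lowered).

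**Figure D4:**
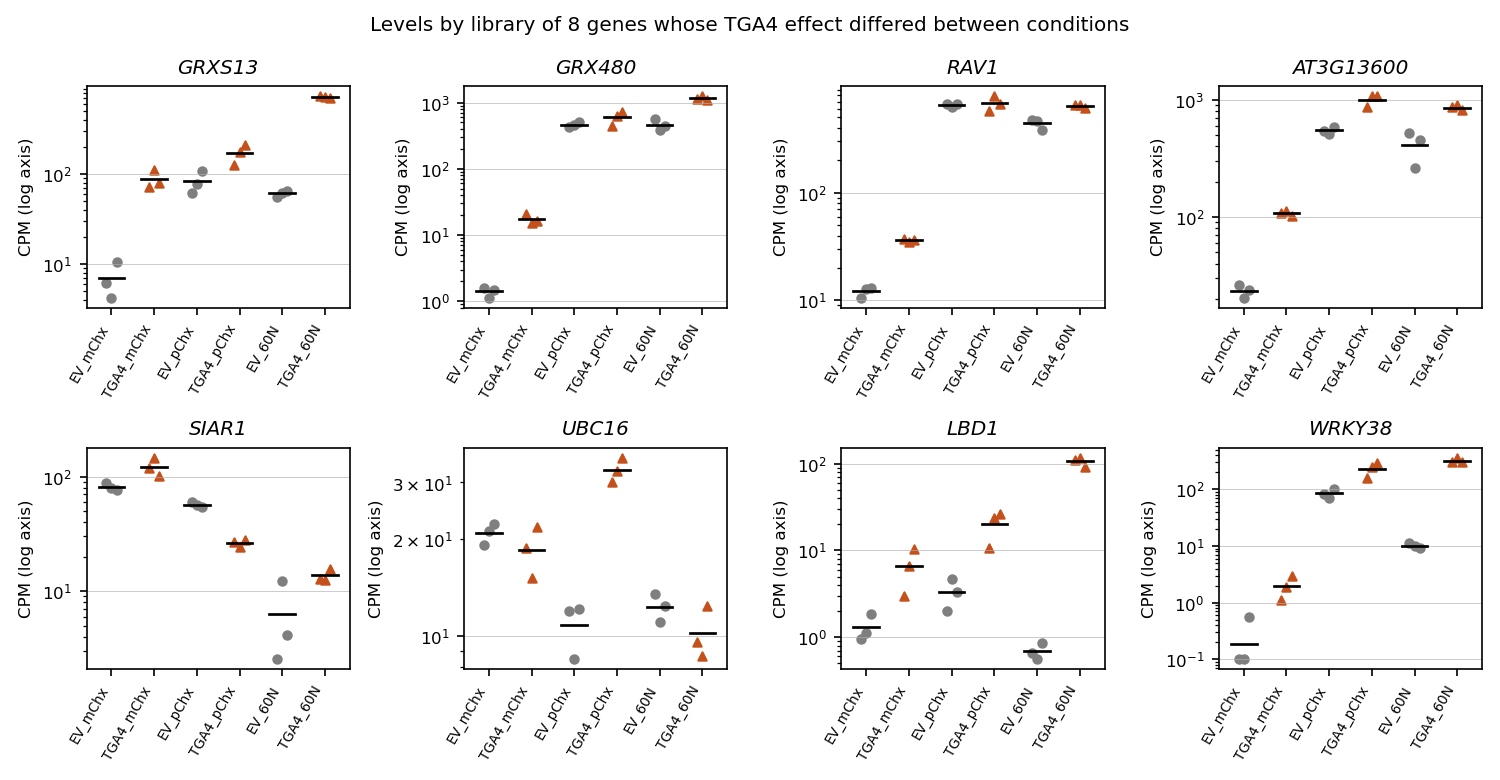
Levels of 8 genes whose TGA4 effect differed between conditions. Each panel is a gene, the y axis is CPM on a log axis with its own range (a level of 0 is drawn at 0.1), grey circles are empty vector libraries, orange triangles TGA4 libraries and black lines group means, with 3 libraries in each of 6 groups. The 60N libraries were scaled in a separate fit, so their levels compare within that pair. GRX480 and RAV1 were far higher with cycloheximide in both vectors, and SIAR1 was lower with TGA4 only in the TGA4_pChx and EV_pChx pair, and not at 60N, where cycloheximide was also present.

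A separate set of transfections at 60N, also with cycloheximide, gives a second measurement of TGA4 that shares no library with the first. There TGA4 changed 1418 of 18341 genes (7.73%), 955 upward and 463 downward, in deeper libraries (9183261 to 16214169 counts). More of the induced than of the repressed genes were called again, a difference that was not tested. Of 170 induced genes tested at 60N, 162 had the same sign and 128 were called as induced, with a median log2 fold change there of 1.06. Of 169 repressed genes, 144 had the same sign but 26 were called as repressed and 2 as induced, with a median of −0.33. The 2 were bZIP2, a group S basic leucine zipper factor (−0.52 ± 0.12 with cycloheximide and 0.56 ± 0.11 at 60N), and AT5G21940 (−0.39 ± 0.10 and 0.57 ± 0.17). The genes called with the same sign in all 3 comparisons numbered 95 induced and 16 repressed, and 17 induced and 66 repressed genes were called in neither of the other 2.

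The difference between the effect in the cycloheximide experiment and at 60N was then tested in 1 fit over both, for 19262 genes. It was called for 178 (0.924%), of which 20 were higher and 158 lower in the cycloheximide experiment. Its count depended on single libraries, at 107, 101 and 113 without EV_pChx replicate 1, 2 or 3, 86 without TGA4_pChx replicate 2, 95, 72 and 98 without TGA4_60N replicate 1, 2 or 3 and 294 without EV_60N replicate 2. Of the 173 induced genes in this fit, 31 differed, 27 of them with a smaller induction in the cycloheximide experiment. Of the 172 repressed genes, 13 differed, all lower in the cycloheximide experiment. As the genes were chosen by their values in that experiment, these counts describe the calls and do not test them anew.

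LBD1 showed the widest called gap among the genes named by size. At 60N it rose from 0.660, 0.556 and 0.847 CPM to 109, 118 and 92.1 CPM (7.30 ± 0.24), and the effects differed by −4.63 log2 units (adjusted p = 1.26e-04). WRKY67 rose from 5.19, 2.33 and 2.86 CPM to 221, 257 and 229 CPM (6.13 ± 0.31, difference −2.77, adjusted p = 0.00453) and ABO3 from 5.56, 8.50 and 10.5 CPM to 167, 196 and 174 CPM (4.45 ± 0.20, difference −1.49, adjusted p = 0.0159). WRKY38 rose from 11.3, 9.95 and 9.11 CPM to 299, 363 and 304 CPM (4.99 ± 0.27, difference −3.56, adjusted p = 1.00e-05). Empty vector levels of WRKY38 and LBD1 were higher in the cycloheximide experiment than at 60N, and those of WRKY67 and ABO3 overlapped between the experiments. The levels come from separately scaled fits, which limits this comparison. All 4 transcription factors had the larger fold change in the 60N experiment, which by the methods had the same nitrogen dose. The same held for GEA6 (difference −1.91, adjusted p = 0.00256), AOC2 (−1.83, 0.027), GRXS13 (−2.54, 1.13e-04), NPR4 (−1.39, 0.0023), NIP1;2 (−1.93, 8.10e-04) and AT1G66610 (−2.08, 4.25e-04), each difference followed by its adjusted p.

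Not all induced genes had a larger effect at 60N. EXO70H1 rose there from 347, 154 and 275 CPM to 880.3, 879.9 and 703 CPM (1.67 ± 0.22), with a difference of 0.89 (SE 0.36, adjusted p = 0.345). CKX5 had a difference of −0.01 (SE 0.27, adjusted p = 1) and WAKL4 of 0.22 (SE 0.28, adjusted p = 0.85), neither of which was called. UBC16 was among the 4 that differed the other way, at 13.5, 11.1 and 12.4 CPM and 9.58, 8.64 and 12.4 CPM at 60N (−0.26 ± 0.17), a difference of 1.85 (adjusted p = 8.10e-04). AT5G08340, which overlaps the induced GRAM gene AT5G08350 (2.32), also had the larger effect in the cycloheximide experiment (1.67 ± 0.25 against 0.0039 ± 0.20, adjusted p of the difference = 0.0167). UBC16 likewise overlaps the induced CKX5. The 2 experiments list different numbers of IDs (33341 and 33016). Whether shared reads were assigned alike in both was not tested, so these 2 differences may not be effects on the genes themselves.

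None of the Casparian strip genes was called as repressed at 60N, and 2 of 11 were called as induced, SGN1, a kinase of the barrier's surveillance pathway (0.54 ± 0.16, adjusted p = 0.0454), and SGN3 (0.62 ± 0.15, adjusted p = 0.0115). ESB1 had 0.283, 0.611 and 0.529 CPM and 0.721, 0.934 and 0.580 CPM there, near the floor of 0.185 to 0.327 CPM, and a fitted change of 0.59 ± 0.61. The difference of −2.29 (adjusted p = 0.00453) compares a decrease from over 160 CPM with a gene that was hardly detected in the other experiment. CASP4 had 1.51, 0.945 and 1.59 CPM and 1.54, 1.17 and 2.55 CPM (0.42 ± 0.38, difference −2.23, adjusted p = 0.049) and LAC3 6.41, 5.50 and 3.71 CPM and 5.05, 6.66 and 3.95 CPM (−0.01 ± 0.28, difference −1.77, adjusted p = 0.049). CASP1 was at 16.9, 8.33 and 12.7 CPM and 8.65, 8.99 and 7.20 CPM (−0.59 ± 0.28), and its difference of −1.04 was not called (adjusted p = 0.231). SIAR1 was at 2.55, 12.3 and 4.13 CPM and 12.9, 12.6 and 15.7 CPM (1.03 ± 0.36, difference −2.14, adjusted p = 0.0357), with EV_60N replicate 2 apart from its group.

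Among the repressed genes that were also called as repressed at 60N were IAA2 (−0.92 ± 0.14), OFP1 (−0.94 ± 0.21), CIPK4 (−0.87 ± 0.21), TRM28 (−1.37 ± 0.34), PDLP4 (−1.70 ± 0.46), RWP1 (−0.82 ± 0.17), CYP86A1 (−0.72 ± 0.21), ADH1 (−0.93 ± 0.28) and AT3G55230 (−1.09 ± 0.29). Of these, none was called for the difference between the experiments. Apart from TGA4, the 6 genes with the smallest p for that difference were WRKY38 and 5 genes without a call with cycloheximide. AT1G11300, a receptor-like kinase, was at 8.63, 5.12 and 9.03 CPM and 11.8, 6.22 and 6.85 CPM with cycloheximide and rose from 3.49, 2.78 and 4.02 CPM to 47.8, 45.2 and 43.9 CPM at 60N (difference −3.71, adjusted p = 2.52e-05). ABCG40, an abscisic acid transporter, was at 43.3, 26.6 and 39.7 CPM and 56.3, 36.9 and 59.6 CPM and rose from 12.4, 5.89 and 10.2 CPM to 136, 176 and 169 CPM at 60N (difference −3.68, adjusted p = 2.60e-05). The groups overlapped in the cycloheximide experiment and were far apart at 60N for both.

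**Figure D5:**
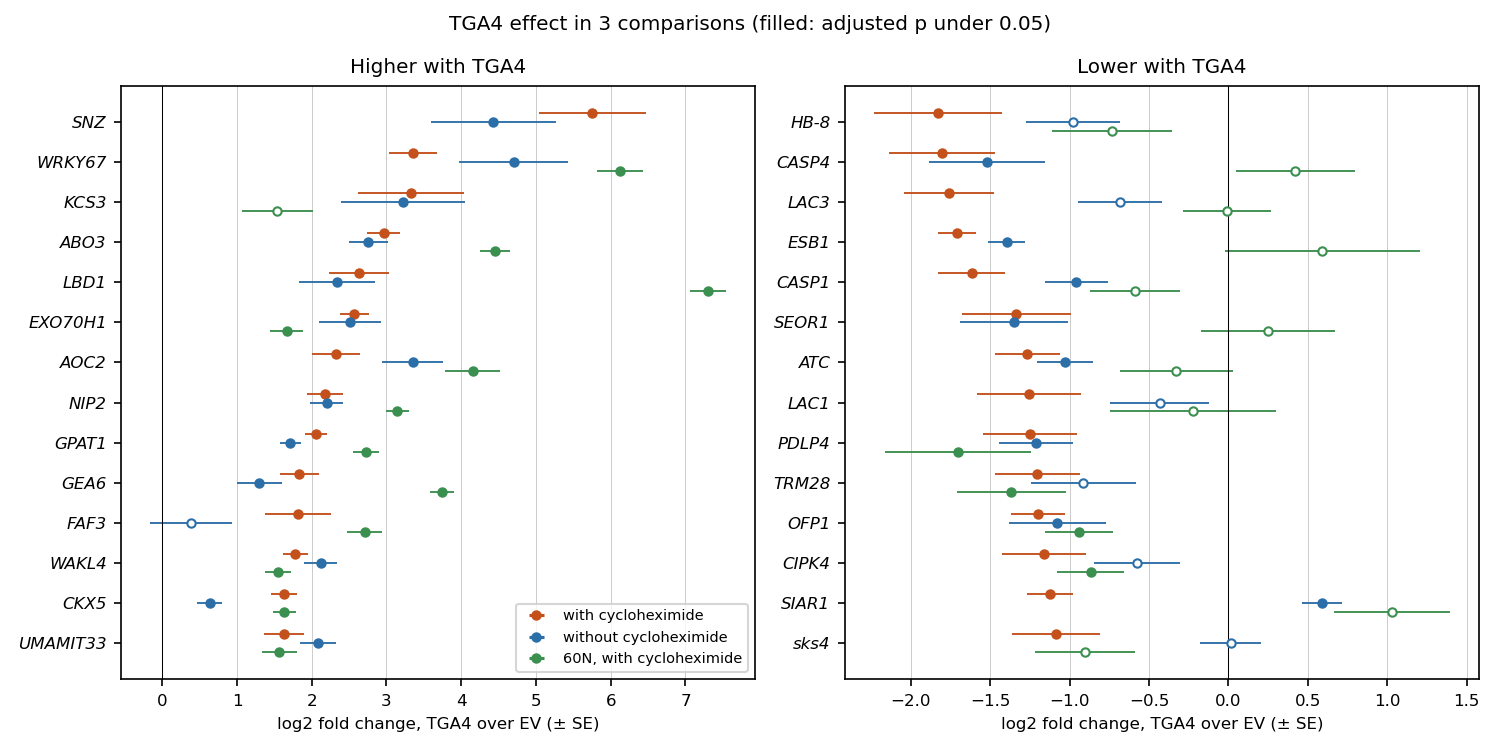
TGA4 effect on the 14 induced (left) and 14 repressed (right) genes in 3 comparisons. The x axis is the log2 fold change of TGA4 over the empty vector with its SE, in orange with cycloheximide, in blue without it and in green at 60N, and filled points have an adjusted p under 0.05. SNZ was not tested at 60N. On the left, 12 of 13 green points are filled and LBD1 is farthest from its orange point. On the right, 4 of 14 green points are filled, and SIAR1 lies on opposite sides of 0.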

How the data were processed

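Messenger RNA of sorted protoplasts, purified on oligo(dT) beads, was sequenced by the authors from NEBNext Ultra libraries, and reads were aligned to the TAIR10 genome with TopHat2, per the labels and methods. The authors deposited whole-number counts per gene, which per the methods came from Bioconductor packages for genomic ranges. The annotation release, the use of strand and the treatment of reads that fall on more than 1 gene are not given in the sources used here. The authors then tested with DESeq2 in a model with a batch term, but the labels name no batch, and no such term was fitted here.

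Deposited counts were tested with edgeR 4.0.16 (R 4.3.3): TMM scaling, the default filter on low counts, 1 group mean per condition over the 12 libraries of the cycloheximide experiment, and the quasi-likelihood F-test, with Benjamini-Hochberg adjustment over 18674 genes and calls at an adjusted p under 0.05. AT5G10030 was then left out. The difference between effects with and without cycloheximide was a contrast of the same fit. The effect at 60N came from a fit of the 18 nitrogen-dose libraries, and its difference from the cycloheximide experiment from 1 fit of 12 libraries over IDs in both tables, so that the difference need not equal the subtraction of the 2 effects. CPM are TMM-scaled and not divided by gene length. Settings were tested on simulated data.

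Named by rule were the 14 induced and 14 repressed genes with the largest change (called, groups separate, at least 5 CPM in the higher group, with a symbol), the next 6 in each direction by p, called members and defining members of gene lists, genes called for a difference between conditions, the 6 with the smallest p for it, and the 3 longest runs of neighbours. The members and lists were chosen with earlier results of these data known. The patterns that define families by symbol were corrected after the tables were seen. Casparian strip, suberin, EXO70, GH3 and wall-associated kinase lists, the sulfur genes, PIN3, bZIP2, AT5G21940, AT2G36090, AT3G24518, AT3G26460, AT5G43540, AT5G08340, AT5G08350, UBC16, EXL4 and the overlapping partners were named after values were seen. Lists were described by counts and medians, without set tests. Results withheld from this text are not reported here.

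Gene names, coordinates and promoters came from RefSeq TAIR10.1, which held 99.15% of the 33341 IDs of the cycloheximide table and 99.33% of the 33016 of the other. Alternatives were DESeq2 1.42.0, RLE size factors, no filter, TGA4 left out of the fit, the 6 libraries alone, a replicate block, thinning to the smallest library, and leaving out each library. Depth was 2397664 to 8177924 counts in the cycloheximide experiment, so a floor of 3 counts covers counting error only. Wells of 1 transfection are the replicates, and p-values cover the spread between them. The root, whole protoplast and lower nitrogen libraries were not used for effects on genes.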

Additional observations from a re-analysis of the deposited data

Results flagged for a closer look

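The TGA4 effect differed between the cycloheximide experiment and 60N for 30 named genes (edgeR's test of the difference, adjusted p under 0.05). Differences are log2 values, the cycloheximide experiment minus 60N, and no explanation was weighed. Genes whose induction was smaller in the cycloheximide experiment were LBD1 (−4.63), WRKY38 (−3.56), WRKY67 (−2.77), GRXS13 (−2.54), AT2G36090 (−2.26), AT1G66610 (−2.08), NIP1;2 (−1.93), GEA6 (−1.91), AOC2 (−1.83), ABO3 (−1.49), APS3 (−1.48), NPR4 (−1.39), AT5G49440 (−1.07), WRKY75 (−0.99), EXL4 (−0.98) and LOX6 (−0.94). Genes not called with cycloheximide were AT1G11300 (−3.71), ABCG40 (−3.68), AT3G01513 (−2.67), UGT76B1 (−2.29) and AT1G29640 (−1.87). UBC16 (1.85) and AT5G08340 (1.66), which each overlap another induced gene, had the larger effect in the cycloheximide experiment.

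Repressed genes with a difference were AT1G71740 (−2.66), ESB1 (−2.29), CASP4 (−2.23), SIAR1 (−2.14), LAC3 (−1.77), bZIP2 (−1.09) and AT5G21940 (−0.98), the last pair being called as induced at 60N.

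Between the effects with and without cycloheximide, 8 named genes differed by the same test. The differences, with minus without, were −3.27 for GRX480, −2.59 for GRXS13, −2.48 for AT4G37432, −1.71 for SIAR1, −1.50 for RAV1, −1.34 for AT3G13600, 1.45 for EXL4 and 1.75 for UBC16. SIAR1, GRXS13, UBC16 and EXL4 differed in both comparisons.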

How the results depend on the processing

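The number of genes called between TGA4_pChx and EV_pChx stayed within 1.5 times of 357 with DESeq2 (451, of which 193 were higher and 258 lower), RLE size factors (360), TGA4 left out of the fit (357), the 6 libraries alone (344), thinning to the smallest library (315) and removal of genes that cycloheximide changed more than 5-fold (297). Of the 357 genes, 341 of the 348 that DESeq2 tested, 347 with RLE size factors, 280 of 355 with the 6 libraries alone and 265 of 354 after thinning were called again, and none changed sign. Without a filter on low counts 688 genes were called (294 higher, 394 lower), and with a log2 fold change of at least 1 required, 109 (64 and 45). The cause of the first was not tested. Leaving out 1 library gave 108 to 517 genes (higher 70 to 233, lower 38 to 284). Fits without 1 library have fewer samples.

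With the replicate block, 540 genes were called, 247 higher and 293 lower, among them all 357. Deviations of same-numbered libraries correlated at 0.227, 0.0105 and 0.15. TGA4_pChx replicates 1 and 3 correlated best with the EV_pChx library of the same number, and replicate 2 with EV_pChx replicate 3 (0.0841). These values do not settle whether the numbers mark pairs, and the fit without pairs was kept as the main one. The difference with and without cycloheximide was called for 50 genes by DESeq2, for 130 without a filter, for 31 with the replicate block and for 16 to 32 without 1 library. The difference from 60N was called for 171 genes with RLE size factors, for 250 with the block and for 72 to 294 without 1 library. The share of promoters with TGACG in place of TGACGT was 34.7% for induced and 19.3% for repressed genes.

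Of the named genes, 6 lost their call with DESeq2, 20 with the 6 libraries alone and 23 after thinning, 1 with RLE size factors (CRK28) and 1 without a filter (sks4). Named genes kept their direction in all alternatives except RAV1, at −0.071 without TGA4_pChx replicate 2 (up to 0.14 without another library), and AT1G11300, at −0.11 without EV_pChx replicate 2 and −0.24 without TGA4_pChx replicate 1 (up to 0.30 without another). Neither was called with cycloheximide. Depth limits genes near 1 CPM, the floor of the shallowest libraries being 1.05 CPM.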
